A study of Mus musculus with 6 samples.

Results

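The genes described are the G1 cyclins, the G1 kinase Cdk6 and the CDK inhibitors Cdkn1a and Cdkn1b of the CIP/KIP family in 4T1 cells, a mouse mammary carcinoma line. They are 10 members chosen by name, Ccnd1, Ccnd2, Ccnd3, Ccne1, Ccne2, Ccng1, Ccng2, Cdkn1a, Cdkn1b and Cdk6, each matched to 1 row by its symbol among the 56691 genes of the deposited table. Polyadenylated RNA was sequenced from 3 libraries of cells given KIRA6 at 1 µmol/L and 3 libraries of cells given vehicle, both collected after 4 h. All cells were the same line, plated overnight in complete RPMI 1640 before the medium was replaced, and no genotype differed between the groups. KIRA6 is a kinase inhibitor made against IRE1α, which senses unfolded protein in the endoplasmic reticulum. Expression is given as FPKM, in which the fragments of a gene are scaled by the length of its exons and by all fragments assigned to genes. Nothing in the labels says that libraries of a group came from separate cultures, so errors and p-values measure the spread between libraries, which may be technical.

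Passage through G1 depends on CDK4 and CDK6, which are switched on by D-type cyclins, and then on CDK2, switched on by E-type cyclins. Together these kinases phosphorylate RB and its relatives and so release the E2F transcription factors. The CIP/KIP proteins p21 (Cdkn1a) and p27 (Cdkn1b) inhibit cyclin E with CDK2 and also bind cyclin D complexes. Cyclins G1 and G2 are atypical members of the family that are linked to growth arrest, and in many cell types Ccnd1 transcription depends on growth factor signals carried by ERK.

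With KIRA6 the D-type cyclins and Ccne1 fell, and p27, p21 and cyclin G2 rose. Of the 10 members, all of which passed the filter of 0.5 FPKM averaged over the libraries, 4 were called lower and 3 higher by limma at an adjusted p below 0.05, against 7.98% of the 11778 tested genes called lower, 15.6% called higher and 23.6% called either way. The members not called were Ccne2, Ccng1 and Cdk6. Levels of KIRA6 and vehicle libraries did not overlap for 9 members, all but Ccne2, and this held for 41.8% of tested genes. Over all tested genes the median log2 fold change was 0.16, and median-ratio scaling, under which it was −0.008, called 1296 genes higher and 1438 lower in place of 1843 and 940. That scaling left 3 members called higher and made 5 lower, Cdk6 being added. No member changed direction under median-ratio scaling, quantile normalization or rescaling to TPM. In bulk RNA, fewer cells that express a gene and less of its RNA per cell cannot be told apart.

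**Figure D1:**
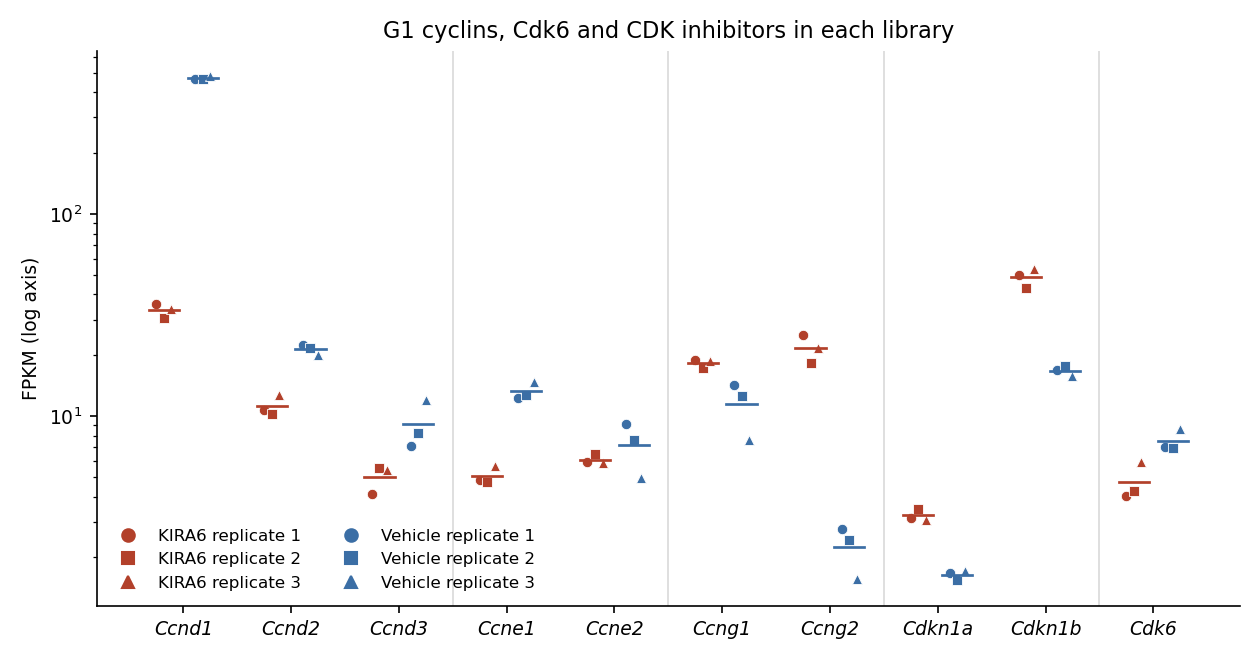
FPKM of each member in each library on a log axis, with KIRA6 in red to the left and vehicle in blue to the right of each gene; shapes mark replicate numbers and short lines are group means. Ccnd1 lies between 30.6 and 35.7 FPKM with KIRA6 and between 463 and 481 FPKM with vehicle, and the groups overlap for Ccne2 alone.

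The estimated depth was 18215000 to 21352500 fragments assigned to genes in the KIRA6 libraries and 16490000 to 18601500 in the vehicle libraries. Mitochondrial genes took 2.66% to 3.25% of them with KIRA6 and 1.75% to 2.03% with vehicle, and 17801 to 18060 genes were above 0 with KIRA6 and 16474 to 16843 with vehicle. Behind single values of the members stood 217 to 4860 estimated fragments with KIRA6 and 90 to 42164 with vehicle, so none rests on a few fragments. Vehicle library 3 and KIRA6 library 1 stood apart from the rest of their groups on the second principal component, which held 35.1% of the variance, at −55.9 and 44.5. They also did on the first, which held 56.0%, at −10.2 and 11.0. There the other vehicle libraries were at −47.7 and −43.8 and the other KIRA6 libraries at 42.05 and 48.6. With Vehicle library 3 and KIRA6 library 1 left out together, 4 members were called higher, Ccng1 being added, and 5 lower, Ccne2 being added. In that fit 4227 of the 11778 genes were called higher and 2383 lower. Epithelial markers of the line (Krt8, Krt18, Krt19, Epcam, Cdh1) were all detected, summing to 1434 to 1533 FPKM with KIRA6 and 1261 to 1381 FPKM with vehicle. Within that sum Krt19 was at 103 to 117 FPKM with KIRA6 and 19.8 to 23.7 FPKM with vehicle, Epcam at 63.8 to 66.9 FPKM with KIRA6 and 36.04 to 42.2 FPKM with vehicle, and Krt18 at 473 to 545 FPKM with KIRA6 and 574 to 631 FPKM with vehicle, with no overlap in any of the 3. Of 5 fibroblast markers Lum was at 0 in all libraries, 4 were under 0.5 FPKM throughout, and their sum was 1.85 to 3.74 FPKM with KIRA6 and 0.44 to 0.75 FPKM with vehicle, nearly all of it Pdgfra. Among leukocyte markers Cd3e was at 0 in all libraries and Ptprc reached at most 0.01 FPKM, and the sum, mostly Cd68, was 3.82 to 4.3 FPKM with KIRA6 and 1.74 to 3 FPKM with vehicle. The part of these differences, the mitochondrial share and the number of detected genes included, in the results was not tested. The 4 endothelial markers summed to at most 0.06 FPKM.

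Cyclin D1, the main D-type cyclin of these cells, showed the largest change among the members. Ccnd1 (ENSMUSG00000070348, chromosome 7, 144483668 to 144493662 on the minus strand of GRCm39) had 35.7, 30.6 and 33.9 FPKM in the KIRA6 libraries, against 463, 463 and 481 FPKM in the vehicle libraries. Every KIRA6 library was far below every vehicle library, and the 3 libraries of each group lay close together. Its mean with KIRA6, 33.4 ± 2.56 FPKM, was 7.12% of the vehicle mean of 469 ± 10.5 FPKM (SD, n = 3 each). The log2 fold change was −3.79 ± 0.13 (SE, limma adjusted p = 7.87e-05), the fifth lowest of all tested genes, and Ccnd1 was called lower in all 18 alternative fits, with log2 fold changes of −3.98 to −3.73. In fragments, Ccnd1 took 0.0144% to 0.0168% of those assigned to genes with KIRA6 and 0.218% to 0.227% with vehicle. By mean FPKM it ranked 1482 among all genes with KIRA6 and 101 with vehicle.

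The other D-type cyclins were lower by less. Ccnd2 (on the same build, as for all members, chromosome 6, 127102125 to 127129156 on the minus strand) had 10.7, 10.2 and 12.7 FPKM with KIRA6, against 22.6, 21.8 and 20.15 FPKM with vehicle. The groups were well separated, with a mean of 52.1% of vehicle and a log2 fold change of −0.91 ± 0.14 (SE, limma adjusted p = 0.00538). Ccnd3 (chromosome 17, 47815976 to 47910616 on the plus strand) had 4.10, 5.53 and 5.44 FPKM with KIRA6, against 7.13, 8.26 and 12.1 FPKM with vehicle. The vehicle values were spread more widely, and the highest came from Vehicle library 3, which stood apart. The log2 fold change of Ccnd3 was −0.78 ± 0.23 (SE, limma adjusted p = 0.0475), near the threshold, and its call ended when any 1 of the 6 libraries was left out (adjusted p of 0.0524 to 0.115), without the filter on low values and with rescaling to TPM. Ccnd3 overlaps Bysl on the opposite strand, which averaged 10.8 FPKM with KIRA6 and 36.2 FPKM with vehicle, and no strand setting for the counting is given in the sources used here.

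The make-up of the D-type cyclin mRNA also differed between the groups. Summed over the 3 genes, the level was 49.7 ± 2.94 FPKM with KIRA6 and 499.8 ± 11.9 FPKM with vehicle (SD, n = 3 each), 10.1-fold lower with KIRA6. Ccnd1 supplied 70.6%, 66.1% and 65.2% of that sum in the KIRA6 libraries, against 94.0%, 93.9% and 93.7% in the vehicle libraries. The share of Ccnd2 was 22.5% ± 1.64 with KIRA6 and 4.31% ± 0.344 with vehicle, and that of Ccnd3 10.2% ± 1.92 with KIRA6 and 1.82% ± 0.469 with vehicle (SD, n = 3 each). The groups did not overlap in the sum or in any of these shares, for which an exact two-sided permutation test gave p = 0.1, the smallest that 3 against 3 libraries allow, and 0.1 when adjusted over the 14 family measures. Within libraries, the log2 ratio of Ccnd1 to Ccnd2 was 1.54 ± 0.15 with KIRA6 and 4.42 ± 0.11 with vehicle, and that of Ccnd1 to Ccnd3 was 2.63 ± 0.31 with KIRA6 and 5.64 ± 0.34 with vehicle. The ratio of Ccnd2 to Ccnd3 overlapped between the groups, at 1.09 ± 0.24 with KIRA6 and 1.22 ± 0.45 with vehicle (exact permutation p = 0.7; adjusted over 8 ratios, p = 0.7, against 0.133 for the ratios that did not overlap).

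**Figure D2:**
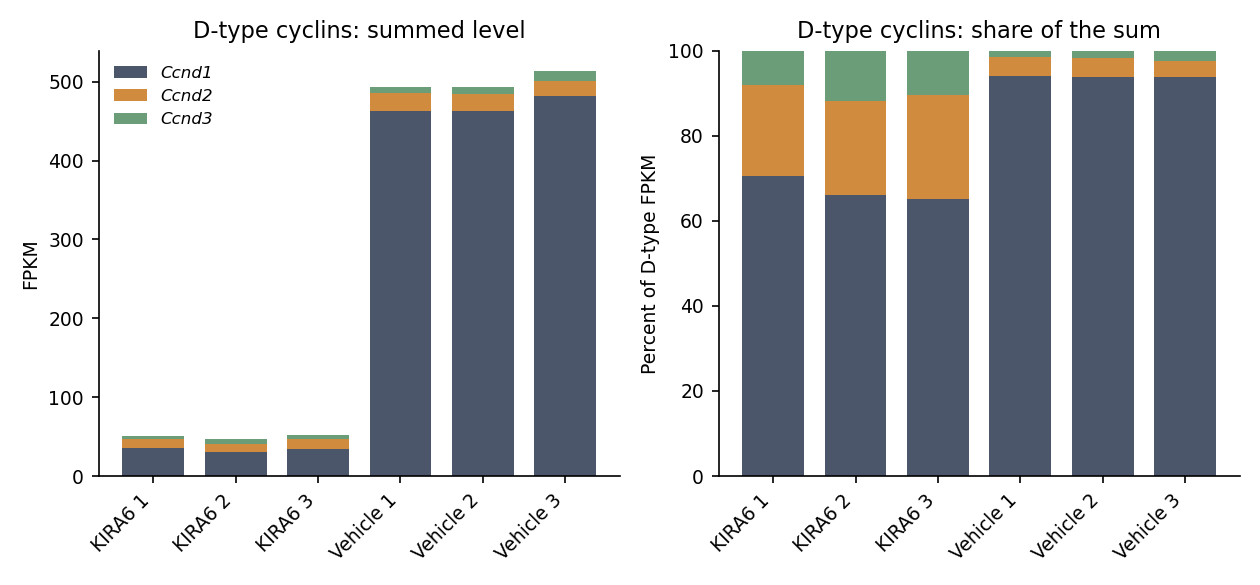
Stacked bars for Ccnd1, Ccnd2 and Ccnd3 in each library, as summed FPKM on the left and as percent of that sum on the right, with the KIRA6 libraries left of the vehicle libraries. The sum lies between 46.4 and 52.1 FPKM with KIRA6 and between 493 and 514 FPKM with vehicle, and the share of Ccnd1 is smaller in every KIRA6 library.

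The E-type cyclins, which activate CDK2 late in G1, were Ccne1, which fell, and Ccne2, which was not called. Ccne1 (chromosome 7, 37797409 to 37806959 on the minus strand) had 4.84, 4.72 and 5.66 FPKM with KIRA6, against 12.4, 12.8 and 14.7 FPKM with vehicle. Its mean was 38.2% of vehicle with no overlap, and the log2 fold change of −1.31 ± 0.14 (SE, limma adjusted p = 0.00194) was called in all 18 alternatives. Ccne2 (chromosome 4, 11191351 to 11204779 on the plus strand) had 5.94, 6.47 and 5.87 FPKM with KIRA6, against 9.18, 7.58 and 4.93 FPKM with vehicle. The KIRA6 values lay inside the vehicle range, whose low end was Vehicle library 3. The log2 fold change of Ccne2 was −0.19 ± 0.23 (SE, limma adjusted p = 0.594), with a 95% interval of −0.73 to 0.35, and without Vehicle library 3 and KIRA6 library 1 together it was −0.41 with an adjusted p of 0.0424. Ccne2 overlaps Ints8 on the opposite strand, at means of 6.003 FPKM with KIRA6 and 5.65 FPKM with vehicle. Ccne1 made up 45.4% ± 3.48 of E-type FPKM with KIRA6 and 65.0% ± 8.99 with vehicle (SD, n = 3 each), and the groups did not overlap (exact permutation p = 0.1).

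None of the 3 kinases bound by these cyclins was called by limma, and at an unadjusted p below 0.05 only Cdk6 was lower. Cdk6 (chromosome 5, 3391485 to 3581008 on the plus strand) had 4.05, 4.28 and 5.92 FPKM with KIRA6, against 7.03, 6.92 and 8.60 FPKM with vehicle. The groups did not overlap, but the log2 fold change of −0.62 ± 0.18 (SE) missed the threshold (limma adjusted p = 0.0524). Cdk6 was called lower in 6 of 18 alternatives, among them limma-voom (adjusted p = 0.0452), median-ratio scaling (adjusted p = 0.021) and the fit without KIRA6 library 3 (adjusted p = 0.0405), in a range of 4.74e-06 to 0.177. Its partner in function, Cdk4, was far more abundant, at 195, 161 and 136 FPKM with KIRA6 and 192, 191 and 141 FPKM with vehicle. The groups overlapped, and the log2 fold change of Cdk4 was −0.09 ± 0.20 (SE, limma adjusted p = 0.783) with a 95% interval of −0.57 to 0.39. Without Vehicle library 3 and KIRA6 library 1 Cdk4 was called lower, at −0.37 (adjusted p = 0.0315), and without KIRA6 library 3 its value was 0.037 (adjusted p = 0.927). Cdk2 had 10.7, 9.09 and 10.6 FPKM with KIRA6, against 11.7, 13.4 and 11.8 FPKM with vehicle, a log2 fold change of −0.27 ± 0.14 (SE, limma adjusted p = 0.192) with an interval of −0.60 to 0.05.

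Both CIP/KIP inhibitors among the members rose. Cdkn1b, which encodes p27 (chromosome 6, 134897364 to 134902476 on the plus strand), had 50, 42.9 and 53.6 FPKM with KIRA6, against 17.0, 17.7 and 15.7 FPKM with vehicle. The lowest KIRA6 library was above the highest vehicle library by a wide margin. The means were 48.9 ± 5.44 FPKM with KIRA6 and 16.8 ± 0.994 FPKM with vehicle (SD, n = 3 each), a 2.91-fold difference with a log2 fold change of 1.51 ± 0.14 (SE, limma adjusted p = 0.00122). It was called in all 18 alternatives. Cdkn1a, which encodes p21 (chromosome 17, 29309950 to 29319701 on the plus strand), was much less abundant, with 3.14, 3.46 and 3.08 FPKM with KIRA6, against 1.67, 1.54 and 1.71 FPKM with vehicle. The libraries of each group were tight and the groups apart, and the log2 fold change of 0.80 ± 0.14 (SE, limma adjusted p = 0.00819) understates a 1.97-fold difference of means, because the pseudocount of 0.5 weighs on low values. The call for Cdkn1a ended with quantile normalization (adjusted p = 0.0825) and without KIRA6 library 2 (adjusted p = 0.0506). Cdkn1b supplied 93.7% ± 1.06 of the summed CIP/KIP FPKM with KIRA6 and 91.1% ± 0.900 with vehicle (SD, n = 3 each).

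Of the G-type cyclins, Ccng2 rose and Ccng1 was not called. Ccng2 (ENSMUSG00000029385, chromosome 5, 93415116 to 93424090 on the plus strand) had 25.2, 18.3 and 21.7 FPKM with KIRA6, against 2.77, 2.45 and 1.57 FPKM with vehicle. The groups were separated by more than their spread, with means of 21.7 ± 3.46 FPKM with KIRA6 and 2.26 ± 0.621 FPKM with vehicle (SD, n = 3 each), a 9.60-fold difference. The log2 fold change was 3.02 ± 0.22 (SE, limma adjusted p = 0.000676), the seventh highest of all tested genes, and every alternative called it, at 2.69 to 3.29. Ccng1, a known target of p53 (chromosome 11, 40639379 to 40646138 on the minus strand), had 19.02, 17.3 and 18.8 FPKM with KIRA6, against 14.2, 12.6 and 7.62 FPKM with vehicle. The groups did not overlap. The lowest vehicle value was again that of Vehicle library 3, and without it the log2 fold change was 0.44 (adjusted p = 0.0462) in place of 0.70 ± 0.23 (SE, limma adjusted p = 0.0735). Ccng2 supplied 57.0%, 51.4% and 53.6% of G-type FPKM in the KIRA6 libraries, against 16.3%, 16.3% and 17.1% in the vehicle libraries.

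**Figure D3:**
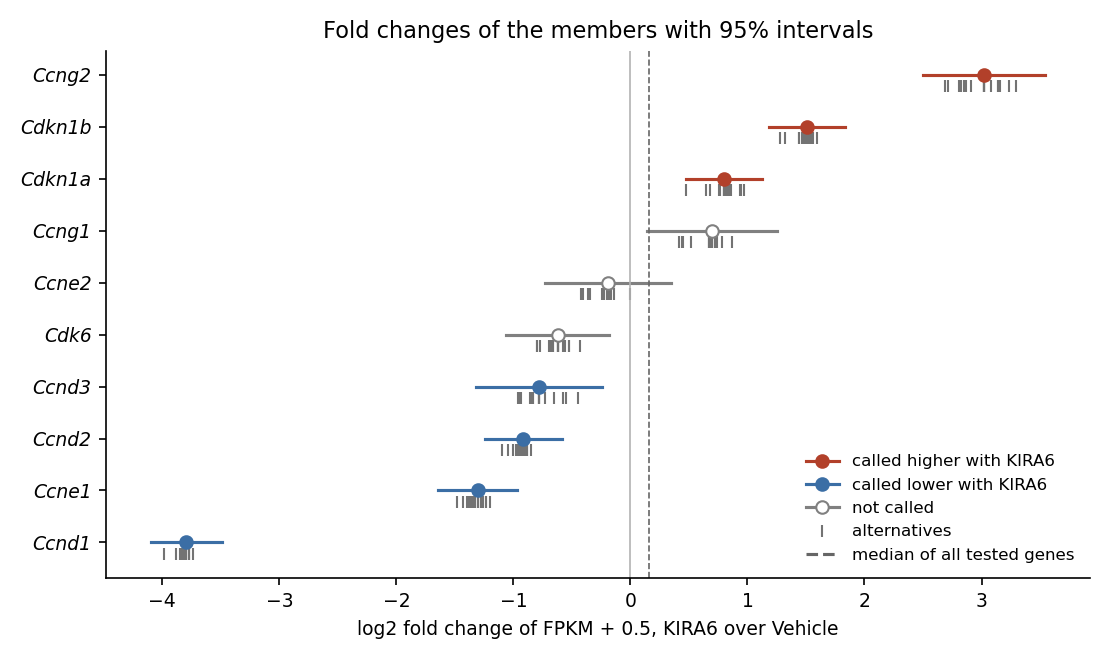
Log2 fold change of FPKM + 0.5 for each member, KIRA6 over vehicle, with limma 95% intervals; ticks below each line are the 18 alternative fits and the dashed line is the median of all tested genes at 0.16. Ccnd1 at −3.79 and Ccng2 at 3.02 lie farthest out, and the interval of Ccne2 spans 0.

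The order of the members by level differed between the groups. With KIRA6 it began with Cdkn1b, then Ccnd1, Ccng2 and Ccng1, then Ccnd2, Ccne2, Ccne1, Ccnd3 and Cdk6, and ended with Cdkn1a. In that order Ccng2 and Ccng1 overlapped, as did Ccne1 and Ccnd3, and Ccnd3 and Cdk6. With vehicle it ran Ccnd1, Ccnd2, Cdkn1b, Ccne1, Ccng1, Ccnd3, Cdk6, Ccne2, Ccng2 and Cdkn1a, where each neighbour from Ccne1 to Ccne2 overlapped the next, and Ccng2 overlapped Cdkn1a. The D-type sum was 0.951, 1.00 and 0.918 times the CIP/KIP sum in the KIRA6 libraries, against 26.4, 25.7 and 29.5 times in the vehicle libraries. These are ratios of mRNA levels per length and do not measure protein.

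Promoter windows from RefSeq on GRCm38.p6, 250 bases before to 50 after an annotated start, were matched by symbol for 7 members, with 9 windows in all. Shown are those of Ccng2 and Cdkn1b, the members that rose most, and of Ccne1, which fell. Capitals mark matches to any of the motifs searched.

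Ccng2, chr5:93267323-93267622, plus strand: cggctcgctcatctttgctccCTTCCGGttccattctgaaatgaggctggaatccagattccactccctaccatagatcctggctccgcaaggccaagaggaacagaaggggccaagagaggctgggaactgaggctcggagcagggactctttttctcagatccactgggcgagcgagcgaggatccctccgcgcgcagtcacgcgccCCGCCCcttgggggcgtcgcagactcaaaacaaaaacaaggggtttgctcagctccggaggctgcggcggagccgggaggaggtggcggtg

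Cdkn1b, chr6:134920151-134920450, plus strand: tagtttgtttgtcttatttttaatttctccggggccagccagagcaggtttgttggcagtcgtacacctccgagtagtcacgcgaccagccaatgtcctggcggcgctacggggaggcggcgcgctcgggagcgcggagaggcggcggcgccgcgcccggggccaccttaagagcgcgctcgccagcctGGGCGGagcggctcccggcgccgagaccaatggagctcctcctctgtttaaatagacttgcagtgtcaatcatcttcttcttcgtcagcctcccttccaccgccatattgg

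Ccne1, chr7:38107441-38107740, minus strand: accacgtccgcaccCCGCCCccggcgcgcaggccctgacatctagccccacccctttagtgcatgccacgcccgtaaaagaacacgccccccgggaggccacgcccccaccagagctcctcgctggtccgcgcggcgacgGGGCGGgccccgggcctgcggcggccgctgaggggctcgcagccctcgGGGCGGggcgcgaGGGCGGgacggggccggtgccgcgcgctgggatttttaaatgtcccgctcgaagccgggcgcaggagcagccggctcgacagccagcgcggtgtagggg

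The motifs were searched on both strands, and positions count back from the start, with −1 just before it. The GC box GGGCGG, which 35.7% of all 32851 windows hold, was found at −41 on the minus strand of the Ccng2 window, at −61 in that of Cdkn1b, and at −110, −62 and −49 on the plus and −236 on the minus strand in that of Ccne1. It was also found in windows of Ccnd3 and Cdkn1a. The ETS motif CCGGAAG, in 8.86% of windows, was found at −229 on the minus strand for Ccng2 and in a Ccnd3 window. The FOXO motif GTAAACA, in 3.65% of windows, was found in the other Ccnd3 window alone among the 9. The E-box CACGTG, in 7.15%, was found for Cdk6. The AP-1 motif TGANTCA (7.81%), the CRE TGACGTCA (1.79%) and the E2F motifs TTTGGCGC and TTTCCCGC (1.56% together) had no match in the 9 windows. A match is a run of letters and not a site, and no window was searched for Ccnd1, Ccnd2 or Ccne2.

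Genes around the members were read from 10 lists, in which Rbl2 stands under both the RB and the FOXO heading and Sesn1 under both the p53 and the FOXO heading. The members Ccng2 and Cdkn1b are also on the FOXO list, and Ccng1 and Cdkn1a on the p53 list. Their counts stand beside the 15.6% of all tested genes called higher and the 7.98% called lower. Among the other CDK inhibitors, the 3 with a mean of at least 0.5 FPKM were all called higher. The INK4 inhibitors of CDK4 and CDK6 Cdkn2c (p18) averaged 96.4 ± 6.90 FPKM with KIRA6 and 57.7 ± 7.02 FPKM with vehicle, and Cdkn2d (p19) averaged 44.02 ± 6.32 FPKM with KIRA6 and 24.3 ± 4.58 FPKM with vehicle. The phosphatase gene Cdkn3 averaged 15.1 ± 2.69 FPKM with KIRA6 and 5.64 ± 1.47 FPKM with vehicle (SD, n = 3 each). The calls ended without Vehicle library 1 or KIRA6 library 2 for Cdkn2c, and for Cdkn2d without Vehicle library 2 or any 1 KIRA6 library and with median-ratio scaling. Cdkn1c, Cdkn2a and Cdkn2b reached at most 0.05 FPKM in any library.

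Of 8 tested CDK partners and activators, 1 was called, the CDK-activating phosphatase Cdc25a, which fell to 7.59 ± 1.05 FPKM with KIRA6, against 15.04 ± 0.804 FPKM with vehicle (limma adjusted p = 0.00606), and 5 were lower without Vehicle library 3 and KIRA6 library 1. Of 13 RB and E2F family genes 2 rose and 1 fell, a share near the 23.6% called over all tested genes. More fell than rose by median ratios, 3 against 2, and by quantiles, 3 against 1, while rescaling to TPM gave 2 of each. The RB relative Rbl2 (p130) averaged 6.92 ± 1.37 FPKM with KIRA6 and 1.97 ± 0.208 FPKM with vehicle, a log2 fold change of 1.57 ± 0.18 (SE, limma adjusted p = 0.00216). Tfdp2, a partner of E2F proteins, was the other that rose, and E2f4 fell to 24.6 ± 3.45 FPKM with KIRA6, against 48.2 ± 11.1 FPKM with vehicle. The calls for Tfdp2 and E2f4 ended without KIRA6 library 2 or 3, and that for Tfdp2 also with quantile normalization.

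Of 22 E2F targets of the G1 to S step 0 rose and 4 fell by limma, with 0 rising at an unadjusted p below 0.05 and 0 by limma-voom, and with a list median of −0.30 beside 0.16 over all tested genes. The licensing factor Cdc6 averaged 8.46 ± 0.419 FPKM with KIRA6 and 18.0 ± 2.43 FPKM with vehicle, and Rrm2, a subunit of ribonucleotide reductase, 79.8 ± 7.65 FPKM with KIRA6 and 140.9 ± 13.1 FPKM with vehicle. The helicase subunit Mcm3 and the thymidine kinase Tk1 also fell. The Mcm3 call ended in 4 of 18 alternatives and that of Rrm2 in 1, without KIRA6 library 2. The count of E2F targets called lower was 8 with median-ratio scaling and 16 without Vehicle library 3 and KIRA6 library 1 together. It was 1 without KIRA6 library 2, and 2 without library 1 or 2 of vehicle or 3 of KIRA6. Calls lower over all tested genes also moved, from 940 to 1438 with median-ratio scaling and 2383 without those 2 libraries. They were 394 to 521 with those single libraries left out. With limma array weights 2 E2F targets were called higher and 18 lower, beside 6046 and 3957 of all tested genes. With the replicate number as a block 1 was called higher and 5 lower, beside 2883 and 1540. Of 15 genes of G2 and M 4 rose and 0 fell by limma, with 0 falling at an unadjusted p below 0.05 and 0 by limma-voom, and a median of 0.60. Cyclin B2 (Ccnb2) averaged 139 ± 15.03 FPKM with KIRA6 and 63.2 ± 4.74 FPKM with vehicle (limma adjusted p = 0.00295), and the checkpoint kinases Bub1 and Bub1b and the APC activator Cdc20 rose by less. The Cdc20 call ended in 6 of 18 alternatives, median-ratio scaling among them, and that of Bub1 in 3. The number of G2 and M genes called higher was 1 without library 2 of vehicle or 2 or 3 of KIRA6. It was 2 without Vehicle library 1 and with median-ratio scaling, and 12, with 1 lower, without Vehicle library 3 and KIRA6 library 1 together. Calls higher over all tested genes went from 1843 to 817 to 1101 without those single libraries, 1296 with median-ratio scaling and 4227 without the 2 together.

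**Figure D4:**
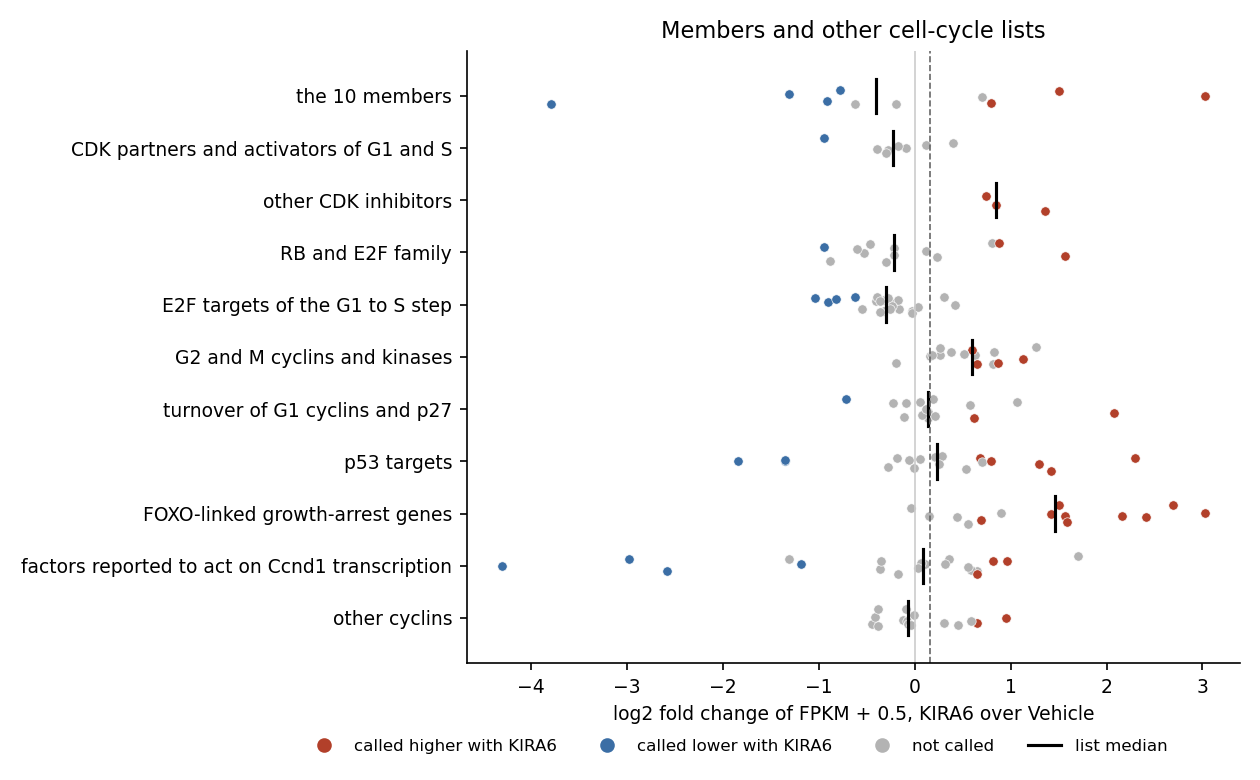
Log2 fold change of FPKM + 0.5, KIRA6 over vehicle, for every tested gene of the members and of the 10 lists; red and blue points were called higher and lower, grey points were not called, black bars are list medians and the dashed line is the median of all tested genes. The FOXO-linked list has no called gene below 0, and the E2F targets have none above it. Members on the FOXO-linked and p53 lists are drawn there too, so the bars stand at 1.47 and 0.23. Without those members the medians are 1.16 and 0.13.

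Turnover genes of G1 cyclins and p27 gave 2 higher and 1 lower of 15 tested, a share not above the 23.6% called over all tested genes, and 1 higher and 1 lower with median-ratio scaling, quantile normalization or rescaling to TPM. Skp2, the F-box protein that marks p27 for degradation, fell to 5.92 ± 0.675 FPKM with KIRA6, against 9.97 ± 0.431 FPKM with vehicle, a call that ended without library 1 or 2 of vehicle or 2 of KIRA6. Cryab, reported to act with Fbxo4 on cyclin D1, rose to 27.8 ± 2.53 FPKM with KIRA6, against 6.23 ± 0.818 FPKM with vehicle (limma adjusted p = 0.000673). Cul4b was the other that rose, with a call lost in 8 of 18 alternatives.

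Ccng2 and Cdkn1b are known FOXO targets. Of the 12 other genes on the FOXO-linked list 7 rose and 0 fell by limma, with a median of 1.16. At an unadjusted p below 0.05 and by limma-voom 0 fell. These 12 include the factors Foxo1, Foxo3 and Foxo4, of which Foxo4 was called higher, and Irs2 and Insr, which were not called. Pik3ip1, an inhibitor of PI3K, averaged 5.84 ± 0.581 FPKM with KIRA6 and 0.483 ± 0.129 FPKM with vehicle, and Txnip 7.07 ± 1.31 FPKM with KIRA6 and 0.930 ± 0.308 FPKM with vehicle (SD, n = 3 each). The number called higher was 6 to 8 with each library left out and 7 with median-ratio scaling, and 12 without Vehicle library 3 and KIRA6 library 1. Cdkn1a and Ccng1 are known p53 targets, and of the 16 other tested genes of the p53 list 4 rose and 3 fell, with a median of 0.13. These include Trp53 itself and Mdm4, neither of them called. Of the list's untested genes, Pmaip1, Gdf15 and Eda2r were at 0 FPKM in all libraries. Trp53inp1 averaged 2.34 ± 0.154 FPKM with KIRA6 and 0.0767 ± 0.0208 FPKM with vehicle, while the nuclease gene Aen fell to 4.18 ± 1.03 FPKM with KIRA6, against 16.2 ± 2.99 FPKM with vehicle, and the kinase gene Plk2 to 7.83 ± 1.40 FPKM with KIRA6, against 20.6 ± 2.34 FPKM with vehicle. Mdm2, another p53 target, was not called, at 7.54 to 8.37 FPKM with KIRA6 and 6.52 to 9.99 FPKM with vehicle.

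Of 20 tested factors reported to act on Ccnd1 transcription 3 rose and 4 fell. Those that fell included the AP-1 subunit Fosl1, at 1.25 ± 0.218 FPKM with KIRA6 and 14.4 ± 7.88 FPKM with vehicle, and the ETS factors Etv4 and Etv5, with log2 fold changes of −2.58 and −4.30. Jun was the fourth, and Junb, Fosl2 and Atf2 rose. The number that rose was 1 without library 1 or 2 of vehicle or 2 or 3 of KIRA6 and with median-ratio scaling, and 5 without Vehicle library 3. Of 15 tested genes on the list of other cyclins, which also holds CDKs and the binding partner Ccndbp1, 2 rose and 0 fell by limma. That stands against 2 lower at an unadjusted p below 0.05 and 0 by limma-voom. With median-ratio scaling 1 was higher and 2 were lower, and with quantile normalization 2 were higher and 2 lower, so the one-sided count did not hold under those scalings, and its share is below the 23.6% of all tested genes. The atypical cyclin Ccni averaged 77.6 ± 6.96 FPKM with KIRA6 and 39.8 ± 0.611 FPKM with vehicle (limma adjusted p = 0.00362), and Ccndbp1, a binding partner of D-type cyclins, rose to 9.20 ± 0.734 FPKM with KIRA6, against 5.67 ± 0.601 FPKM with vehicle. The call for Ccndbp1 ended in 6 of 18 alternatives, with median-ratio scaling, with rescaling to TPM and without library 1 or 2 of vehicle or 2 or 3 of KIRA6.

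The genes nearest to Ccnd1 and to Ccng2 were taken by the Euclidean distance over the 6 libraries of log2(FPKM + 0.5) less its vehicle mean, among 10541 other genes that averaged 1 FPKM or more. Nearest to Ccnd1 were Areg, Rgs16 and Etv5, at distances of 0.415, 0.7004 and 1.24. Areg, a ligand of the EGF receptor, had 1.27, 1.17 and 0.79 FPKM with KIRA6, against 22.2, 23.0 and 22.4 FPKM with vehicle. Nearest to Ccng2 were Mgst1, Klhl24 and Mxd4, at 0.432, 0.454 and 0.480. Mxd4, which encodes a repressor that competes with MYC for MAX, had 9.40, 7.63 and 7.77 FPKM with KIRA6, against 0.63, 0.84 and 0.55 FPKM with vehicle. The distances depend on the added 0.5, which draws the fold changes of low values towards 0. Mean levels with KIRA6 were 1.08 FPKM for Areg, 1.10 FPKM for Rgs16 and 0.327 FPKM for Etv5. Those with vehicle were 1.83 FPKM for Mgst1, 0.343 FPKM for Klhl24 and 0.673 FPKM for Mxd4.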

How the data were processed

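Per the labels' protocols, RNA was taken with TRIzol, poly(A) RNA selected on oligo(dT) beads and libraries built strand-specifically with dUTP. The authors deposited FPKM with 2 decimals for each gene and library, beside exonic lengths and GRCm39 coordinates. Cutadapt 1.9.1, HISAT2 2.2.1, HTSeq 0.6.1 and DESeq2 1.34.0 are named in the submitters' processing notes, and the sources used here give no settings for them. FPKM is relative to the fragments assigned to genes, so a gene's value depends on all others.

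Groups and replicate numbers came from sample titles. Depth was recovered from the steps between low values of genes of 200 to 600 bases, where 654 to 774 values per library below 12 fragments lay within 0.1 of a whole number. Log2(FPKM + 0.5) was fitted with limma 3.58.1 (R 4.3.3), KIRA6 against vehicle, two-sided, using a trended prior variance and robust moderation, and p-values were adjusted by Benjamini-Hochberg over the 11778 genes that averaged 0.5 FPKM or more. The 18 alternatives varied the pseudocount, filter, scaling, weights, block, limma-voom on estimated fragments and libraries left out. Family sums and 8 within-library ratios used exact permutation tests. Errors are SD between libraries for levels and limma SE for fold changes. The limma fit was tested on simulated data, in which the genes varied independently of each other.

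The members and lists were chosen with earlier results of these data known, so no list was tested as a set. Beside the members, Cdk4 and Cdk2, up to 3 called genes of smallest p per list and 3 nearest genes were named by rule. Genes beyond these, such as Bub1b, Tk1, Jun, Junb, Fosl2, Atf2 and Mdm2, were chosen after their values were seen. One marker gene is not reported here. Promoter windows are RefSeq's and share no coordinates with the deposited table.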

Additional observations from a re-analysis of the deposited data

How the results depend on the processing

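Ccnd1, Ccnd2, Ccne1, Ccng2 and Cdkn1b kept their direction and their call in all 18 alternatives. Ccnd3 was called in 10, Cdkn1a in 16, Cdk6 in 6, Ccng1 in 4 and Ccne2 in 2, with no change of direction. Members called higher numbered 2 to 4 and lower 3 to 4 with 1 library left out. The count of called genes, 2783, was 10003 with limma array weights, whose weights ran from 0.104 for Vehicle library 3 to 34.1 for Vehicle library 2, and 6610 without Vehicle library 3 and KIRA6 library 1 together. Leaving out 1 library gave 1211 to 3392, at 1622 for Vehicle library 1, 1268 for Vehicle library 2, 1211 for KIRA6 library 2 and 1554 for KIRA6 library 3. The causes were not tested, except that fits without a library have fewer samples. Of the family and ratio alternatives 149 stayed within the SD between libraries, 7 moved further and 1 turned, the ratio of Ccnd2 to Ccnd3, a log2 difference of −0.13 that was −0.38 to 0.056 with 1 library left out, 0.056 being without Vehicle library 1. Counted in fragments and not per length, the share of Ccnd1 among D-type cyclins differed by −37.4 points in place of −26.6.

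With the replicate number as a block 4423 genes were called, among them Ccng1 (adjusted p = 0.0232) and Cdk6 (adjusted p = 0.0127). Pairing by number was uneven. Deviations of same-numbered libraries from the group means correlated at 0.762 for number 1, −0.47 for number 2 and 0.738 for number 3. Not every library correlated best with its own number. Deviations of 3 libraries from their own mean depend on each other, so these values do not settle whether same-numbered libraries were paired. Without Vehicle library 3 and KIRA6 library 1, 4227 of the 11778 tested genes were called higher and 2383 lower. Beside that, the numbers called higher and lower were 3 and 4 of 13 for the RB and E2F family and 6 and 3 of 15 for turnover. They were 7 and 4 of 16 for the rest of the p53 list, 8 and 5 of 20 for factors reported to act on Ccnd1 and 3 and 2 of 15 for the list of other cyclins. Counting error is largest for Cdkn1a, with 90 to 113 estimated fragments per vehicle library, while the limma SE, which reads the spread between libraries, is largest for Ccng1 at 0.23.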
